A study of Homo sapiens with 18 samples.

Results

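The genes described here were the androgen-induced immunophilin gene FKBP5 and 9 genes for the chaperones and cochaperones that hold steroid receptors ready for hormone. They were chosen by name, as FKBP5, FKBP4, HSP90AA1, HSP90AB1, PTGES3, STIP1, HSPA8, DNAJA1, STUB1 and BAG1. Each of the 10 symbols matched 1 Ensembl gene among the 60675 genes listed in every library. RNA Seq counts came from 18 libraries of 2 human prostate cancer cell lines, LNCaP, whose growth depends on androgen, and its derivative C4-2 (LNCaP:C42), which grows without androgen. In each line, 3 libraries came from cells with non-targeting siRNA (siScr) and vehicle, 3 from siScr cells with the synthetic androgen R1881, and 3 from cells with siRNA pools against the histone demethylases KDM1A and KDM7A and R1881 (dual knockdown). R1881 was given at 1 nM, the treatments lasted 72 h, and all groups were grown in medium with charcoal-stripped serum, which is low in steroids. Knockdown of either demethylase alone, and dual knockdown with vehicle, were not analysed here. Nothing in the labels says that the 3 libraries of a group came from separate cultures, so the p-values measure only the spread between these libraries.

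As background, a steroid receptor is folded by a relay of chaperones before it can bind hormone. HSP70 (HSPA8 is the constitutive form) and its J-domain partner DNAJA1 take up the receptor first, STIP1 (HOP) bridges HSP70 to HSP90, and PTGES3 (p23) stabilises the closed HSP90 complex. FKBP5 (FKBP51) and FKBP4 (FKBP52) compete for the same docking site on HSP90, FKBP5 is a classical target gene of steroid receptors, and STUB1 (CHIP) and BAG1 link the chaperones to protein degradation.

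Total counts ranged from 3182604 in C4-2 vehicle replicate 3 to 20154243, with a median of 18117641. In that shallowest library, the fewest counts of the 10 genes were the 248 of STUB1. The 3 C4-2 vehicle libraries carry C4-2 in their titles but LNCaP as their cell line entry, and they were grouped by title. Their log2 CPM correlated at 0.919 to 0.965 with the mean of the C4-2 R1881 libraries and at 0.817 to 0.863 with that of LNCaP, across 14949 genes, which are not independent replicates. The targeted genes were lower after dual knockdown, KDM1A from between 104 and 113 CPM to between 48.5 and 54.1 CPM in LNCaP and from between 140 and 146 CPM to between 14.6 and 19.9 CPM in C4-2. KDM7A was between 55.0 and 65.0 CPM in LNCaP and fell to between 27.7 and 33.5 CPM, and in C4-2 it fell from between 112 and 132 CPM to between 18.2 and 23.9 CPM. The knockdown was deeper in C4-2 by 2.04 (KDM1A) and 1.56 (KDM7A) on the log2 scale (adjusted p = 2.36e-09 and 6.06e-07, edgeR). All 8 luminal prostate markers were above 1 CPM on average in every group, and of the 3 basal markers KRT5 and TP63 were under 0.1 CPM on average in every group, while KRT14 was at most 0.286 CPM with vehicle and between 0.632 and 1.59 CPM in the libraries with R1881 (log2 fold change 4.17 in LNCaP and 2.68 in C4-2, both past the threshold). The summed leukocyte markers reached 2.04 to 3.52 CPM in the C4-2 vehicle libraries and 0.0623 to 0.734 CPM elsewhere. PTPRC, one of them, was at 1.75 to 3.21 CPM in the C4-2 vehicle libraries and at most 0.184 CPM elsewhere, while CD3E was under 0.1 CPM on average in every group. The 4 stromal markers summed to 16.1 to 17.6 CPM with vehicle, 7.03 to 10.9 CPM with R1881 and 10.2 to 12.6 CPM after dual knockdown in LNCaP and to 27.4 to 35.9, 17.1 to 24.2 and 26.6 to 36.3 CPM in C4-2. COL1A1 alone of them averaged over 1 CPM, lower with R1881 in both lines (-0.95 and -0.70), higher with dual knockdown in C4-2 (0.58) and higher in C4-2 than in LNCaP, while COL1A2 and LUM were under 0.1 CPM on average in every group. The part of these marker levels in the results was not tested.

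Among the C4-2 libraries, 1 of vehicle and 1 of dual knockdown stood apart from the rest of their group. Over all genes, the chi-square per gene between libraries of a group was 18.6 and 18.3 for C4-2 vehicle replicate 3 against 5.41 for the other pair, and 17.4 and 15.3 for C4-2 dual knockdown replicate 1 against 3.58 for the other pair, where all other groups gave 2.56 to 11.5. Without vehicle replicate 3, the R1881 response of FKBP5 in C4-2 was 3.25, its difference from LNCaP stayed past the threshold, and the 6 genes called with R1881 in C4-2 were still past the threshold, PTGES3 least clearly (0.22, adjusted p = 0.0491, edgeR). Without dual knockdown replicate 1, FKBP5 was at -0.28, PTGES3 at -0.34 and HSP90AA1 at 0.37 with dual knockdown in C4-2, and all 3 were still past the threshold.

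R1881 raised FKBP5 more than any other of the 10 genes in both lines, and the other log2 fold changes were at most 0.40. In LNCaP, 4 of 10 genes passed the test and all 4 were higher (FKBP5, PTGES3, STIP1 and HSPA8), where 23.5% of the 17162 genes tested were called higher and 23.2% lower (46.6% in all). In C4-2, 6 of 10 passed and were higher (the same 4 with HSP90AA1 and HSP90AB1), against 17.1% of 16965 genes called higher and 15.7% lower (32.8% in all). Dual knockdown moved 3 of 10 genes in LNCaP, FKBP5 and PTGES3 down and STUB1 up, against 14.2% of genes called, 8.27% higher and 5.89% lower. In C4-2 it also moved 3 of 10, FKBP5 and PTGES3 down and HSP90AA1 up, against 23.5% of genes called, 12.7% higher and 10.8% lower. A call means an adjusted p under 0.05 in edgeR's quasi-likelihood test with Benjamini-Hochberg adjustment over all genes tested. Of these 16 calls, those of FKBP5 with R1881 in each line also passed the log2 fold change of 1 that the study required, as did 5.68% (LNCaP) and 4.29% (C4-2) of genes upwards. The libraries of the groups compared did not overlap for 4 (LNCaP) and 6 (C4-2) of the 10 genes with R1881, against 53% and 46.9% of all genes, and for 4 and 6 with dual knockdown, against 34.5% and 40.5%. In such bulk samples, fewer cells of a kind and less RNA per cell cannot be told apart. All 10 genes passed the filter on low counts in every fit, and none depended on a single group to do so, since each had at least 248 counts in every library.

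**Figure D1:**
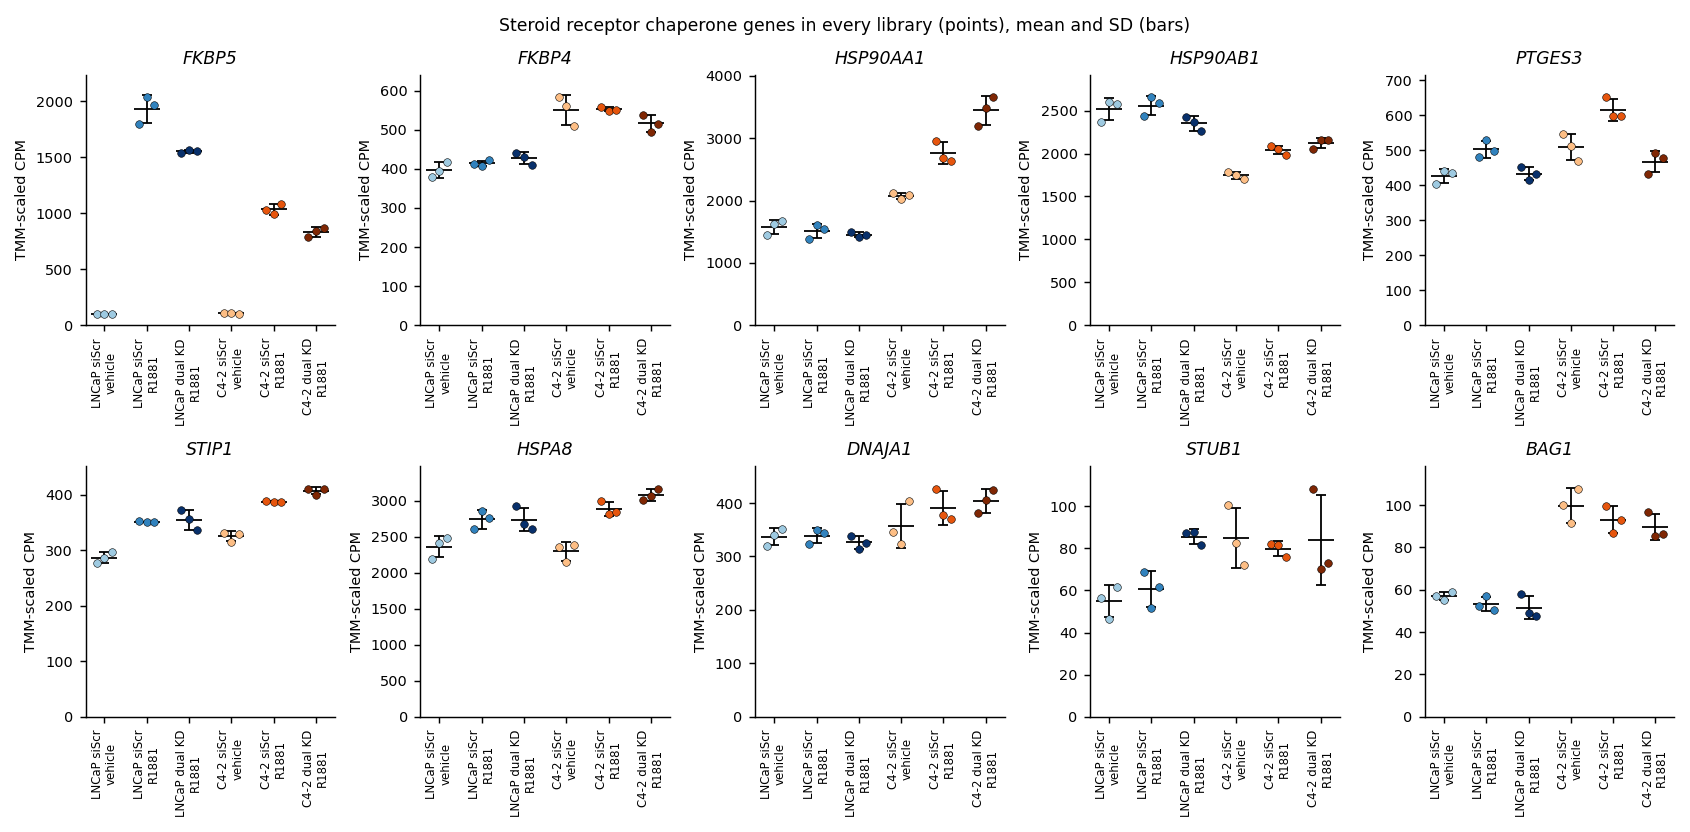
CPM (counts relative to library size after TMM scaling, y axis from 0) of the 10 chaperone genes in each of the 18 libraries (points) by group (x axis), with the mean and SD of 3 libraries (bars); dual KD is the dual knockdown. FKBP5 lies near 100 CPM with vehicle in both lines and between 992 and 2036 CPM in the siScr libraries with R1881.

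The start regions of the genes were read because HSP90 and HSP70 genes are known to carry heat shock elements, and FKBP5 is a steroid target. RefSeq windows of 250 bases before to 50 bases after a transcript start (GRCh38.p14) matched 8 of the 10 genes, in 13 windows, with none for FKBP4 and STUB1. The heat shock core TTCNNGAA was in 5 of the 13 windows, in 1 window each of HSP90AA1, HSP90AB1, HSPA8, DNAJA1 and STIP1, against 7.74% of all 35116 windows. With 1 more unit (NNTTC after the core or GAANN before it), it was in 4 of 13, all but that of STIP1, against 0.49% of all windows. The androgen response hexamer AGAACA was in 1 FKBP5 window and 1 HSP90AB1 window, against 14.8% of all, and in the latter it overlapped a heat shock core. AGAACA facing TGTTCT over 3 bases was in none of the 13 and in 1 window of all. Both strands were searched, a match is a description and not a shown site, and regions outside these windows were not searched. Stretches of 30 bases are shown 5′ to 3′ on the gene's strand, with the motif in capitals, so that the cores of the chaperone genes can be set beside the FKBP5 hexamer.
HSP90AA1, chr14:102087104-102087133, minus strand, 2 cores, the first starting 88 bases before the transcript start: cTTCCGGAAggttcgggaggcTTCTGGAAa
HSP90AB1, chr6:44247767-44247796, plus strand, core 165 bases before the start: aggggagcaggTTCTGGAAgattcatgggc
HSP90AB1, chr6:44247820-44247849, plus strand, core 112 bases before the start: agctgagattgTTCTGGAAgcttctggatt
HSPA8, chr11:123062343-123062372, minus strand, core 225 bases before the start: gagcttgaaagTTCCAGAAcgctgcggtga
HSPA8, chr11:123062173-123062202, minus strand, core 55 bases before the start: gggcgggccccTTCTGGAAggttctaagat
DNAJA1, chr9:33025270-33025299, plus strand, core just after the start: cgggcggaactTTCCAGAAcgctcggtgag
STIP1, chr11:64186173-64186202, plus strand, core just after the start: cttctagtaggTTCCAGAAggcggcgcgtg
FKBP5, chr6:35728566-35728595, minus strand, hexamer at the start itself: caccactaccccAGAACAaactcctacctc
The 5 genes with a core did not share 1 response. HSPA8 and STIP1 rose with R1881 in both lines, HSP90AA1 and HSP90AB1 in C4-2, and DNAJA1 passed neither test. PTGES3, whose 1 window held no core, also rose in both lines.

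FKBP5 was the gene that R1881 changed most among the 10. FKBP5 (ENSG00000096060, chr6:35573585-35728583, minus strand) had CPM, counts relative to library size after TMM scaling, in the LNCaP libraries of 97.7, 105 and 101 with vehicle, 1797, 2036 and 1967 with R1881, and 1542, 1567 and 1555 with dual knockdown and R1881. The 3 groups did not overlap, and dual knockdown left FKBP5 far above its vehicle level. The R1881 response was 18.9-fold, a log2 fold change of 4.24 ± 0.06 (SE, n = 3 against 3, adjusted p = 9.39e-18, edgeR). Only 0.542% of the genes tested had a higher log2 fold change. After dual knockdown, FKBP5 fell by 0.30 on the log2 scale (95% interval -0.41 to -0.18, adjusted p = 0.00336, edgeR), to 0.815 of its siScr R1881 level. This value was -0.19, still past the threshold, once each library's trend with GC content was removed.

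In C4-2, FKBP5 reached a lower level with R1881 than in LNCaP. Its CPM were 107, 111 and 106 with vehicle, 1032, 992 and 1085 with R1881, and 786, 840 and 871 after dual knockdown. Again the 3 groups did not overlap. R1881 raised FKBP5 9.56-fold (log2 fold change 3.26 ± 0.08, SE, adjusted p = 1.92e-12, edgeR), and dual knockdown lowered it by a log2 fold change of -0.32 (95% interval -0.48 to -0.17, adjusted p = 0.0053, edgeR), to 0.801 of the siScr level with R1881. Both calls in each line held under all 18 alternative fits of their comparison, and the dual knockdown calls were under the log2 fold change of 1.

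The R1881 response of FKBP5 was smaller in C4-2 than in LNCaP. Tested as an interaction in all 18 libraries, the difference was -0.99 on the log2 scale (95% interval -1.17 to -0.81, adjusted p = 3.65e-08, edgeR), where 14% of 18684 genes were called for the same contrast, 7.95% lower and 6.05% higher. With vehicle the lines did not differ past the threshold (log2 fold change of C4-2 over LNCaP 0.09, 95% interval -0.04 to 0.23, adjusted p = 0.207, edgeR). That comparison was past it once each library's trend with GC content was removed (0.29, adjusted p = 1.79e-05, edgeR). With R1881, C4-2 was lower by a log2 fold change of -0.90 (95% interval -1.02 to -0.78, adjusted p = 2.69e-11, edgeR). The response of FKBP5 to dual knockdown did not differ past the threshold between the lines (difference -0.0024, 95% interval -0.18 to 0.17, adjusted p = 0.998, edgeR), and the knockdown itself was deeper in C4-2.

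FKBP4, the immunophilin that potentiates receptor activity, did not follow FKBP5. FKBP4 (ENSG00000004478, chr12:2794953-2805423, plus strand) had CPM in LNCaP of 379, 394 and 418 with vehicle, 412, 408 and 422 with R1881 and 441, 431 and 411 after dual knockdown. In C4-2 they were 583, 561 and 509 with vehicle, 558, 548 and 551 with R1881 and 538, 494 and 516 after dual knockdown. Groups next to each other overlapped, except that in C4-2 the dual knockdown libraries lay below the siScr libraries with R1881, and every C4-2 library was above every LNCaP library. The log2 fold changes of FKBP4 within a line lay between -0.10 and 0.07, and none passed the test. The lower end of the interval for dual knockdown in C4-2 was -0.25, the farthest from 0 of the 4 intervals. C4-2 exceeded LNCaP by 0.48 with vehicle and 0.42 with R1881 (adjusted p = 6.61e-07 and 3.9e-06, edgeR). Noncoding genes on the opposite strand overlap 10.5% of the exon model of FKBP4, where read pairs were counted for neither.

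The balance of the immunophilins was also taken within each library, as the ratio of FKBP5 to FKBP4 counts per kilobase of exon model, which needs no scaling between libraries. In LNCaP the ratio was 0.126, 0.129 and 0.118 with vehicle, 2.12, 2.43 and 2.27 with R1881 and 1.70, 1.77 and 1.84 after dual knockdown. In C4-2 it was 0.0896, 0.0965 and 0.101 with vehicle, 0.902, 0.882 and 0.960 with R1881 and 0.712, 0.829 and 0.822 after dual knockdown. FKBP5 thus exceeded FKBP4 per kilobase in all 6 LNCaP libraries with R1881 and in none of the 6 C4-2 libraries with R1881. In C4-2 the side of 1 depended on the exon model lengths, since by counts alone the ratio there was 1.81 to 1.97 with R1881 and 1.46 to 1.70 after dual knockdown. The mean log2 ratio rose by 4.19 in LNCaP and 3.26 in C4-2 with R1881, and changed by -0.36 and -0.22 with dual knockdown. Groups did not overlap in any of the 4 comparisons, each with a 2-sided exact permutation p of 0.1, the smallest that 3 libraries against 3 allow.

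**Figure D2:**
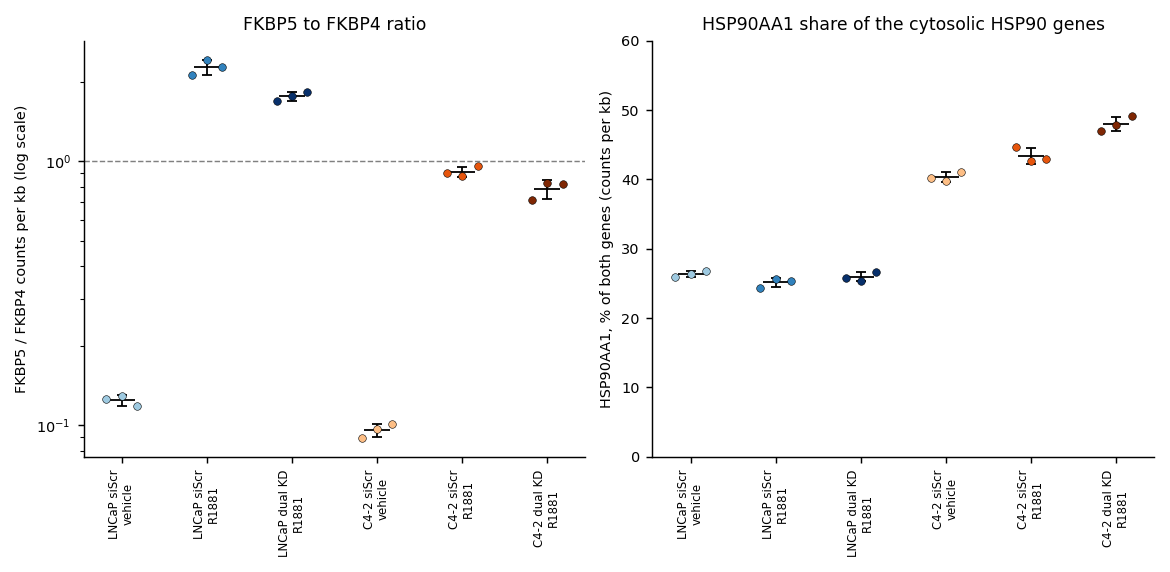
Left, ratio of FKBP5 to FKBP4 counts per kilobase (log scale, dashed line at 1); right, HSP90AA1 as a percentage of HSP90AA1 and HSP90AB1 counts per kilobase (axis from 0), in each library (points) with the mean and SD of 3 libraries (bars). The ratio is between 1.70 and 2.43 in the LNCaP libraries with R1881 and at most 0.960 in C4-2, and the HSP90AA1 share is 24.4% to 26.8% in LNCaP and 39.7% to 49.1% in C4-2.

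The cytosolic HSP90 genes differed between the lines in opposite directions. HSP90AA1 (ENSG00000080824, chr14:102080738-102139699, minus strand), the stress-inducible form with 2 heat shock cores in its start region, had CPM of 1454, 1629 and 1666 with vehicle, 1386, 1615 and 1539 with R1881 and 1491, 1420 and 1449 after dual knockdown in LNCaP, and these groups overlapped. In C4-2 its CPM were 2115, 2027 and 2095 with vehicle, 2960, 2678 and 2632 with R1881 and 3202, 3485 and 3654 after dual knockdown, 3 groups that did not overlap. HSP90AA1 rose with R1881 in C4-2 by a log2 fold change of 0.40 ± 0.07 (SE, adjusted p = 8.46e-04, edgeR) and again with dual knockdown by 0.32 ± 0.07 (adjusted p = 0.00668, edgeR). Without C4-2 siScr R1881 replicate 3, the dual knockdown value was 0.28 with an adjusted p of 0.0524. In LNCaP the corresponding values were -0.08 (95% interval -0.21 to 0.05) and -0.04 (95% interval -0.17 to 0.09).

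Both responses of HSP90AA1 differed between the lines when the difference itself was tested. For R1881 the interaction was 0.47 (95% interval 0.27 to 0.68, adjusted p = 0.00184, edgeR), and for dual knockdown it was 0.38 (95% interval 0.18 to 0.58, adjusted p = 0.0143, edgeR), where 10.9% of genes were called, 6.97% higher and 3.88% lower. The knockdown itself was deeper in C4-2, so line and depth of knockdown cannot be told apart in the dual knockdown interaction. The dual knockdown interaction missed the threshold without LNCaP siScr R1881 replicate 2 (adjusted p = 0.0556), C4-2 siScr R1881 replicate 3 (0.0541) or C4-2 dual knockdown replicate 3 (0.0601), with values of 0.33 to 0.35. C4-2 held more HSP90AA1 than LNCaP with vehicle (log2 fold change 0.39, adjusted p = 4.65e-05, edgeR) and with R1881 (0.87, adjusted p = 6.18e-10, edgeR).

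HSP90AB1 (ENSG00000096384, chr6:44246166-44253888, plus strand), the constitutive form, was lower in C4-2. Its CPM in LNCaP were 2365, 2599 and 2579 with vehicle, 2439, 2654 and 2583 with R1881 and 2430, 2372 and 2258 after dual knockdown. In C4-2 they were 1789, 1745 and 1703, then 2083, 2047 and 1985, then 2053, 2155 and 2152 in the same order of groups. Every C4-2 library was below every LNCaP library, the vehicle libraries were the lowest within C4-2, and the dual knockdown libraries were the lowest with R1881 in LNCaP. HSP90AB1 was lower in C4-2 by 0.53 with vehicle and 0.33 with R1881 on the log2 scale (adjusted p = 4.18e-08 and 2.53e-05, edgeR). R1881 raised it in C4-2 by 0.22 ± 0.06 (SE, adjusted p = 0.017, edgeR), a call that missed the threshold without C4-2 siScr R1881 replicate 1 (0.21, adjusted p = 0.0547). In LNCaP its log2 fold changes were 0.0079 with R1881 and -0.10 with dual knockdown, neither past the threshold.

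Within each library, HSP90AA1 was 25.9%, 26.3% and 26.8% of the 2 genes per kilobase in LNCaP with vehicle, 24.4%, 25.7% and 25.3% with R1881 and 25.8%, 25.4% and 26.7% after dual knockdown. In C4-2 the share was 40.2%, 39.7% and 41.1%, then 44.7%, 42.6% and 42.9%, then 47.0%, 47.9% and 49.1%. Which gene led in C4-2 depended on the exon model lengths, 5248 bases for HSP90AA1 and 2980 for HSP90AB1. By mean CPM, HSP90AA1 exceeded HSP90AB1 there, at 2079 against 1746, then 2757 against 2039, then 3447 against 2120. The C4-2 groups did not overlap, with mean differences of 3.07 percentage points for R1881 and 4.57 for dual knockdown (2-sided exact permutation p = 0.1 each, the smallest possible). In LNCaP the share differed by -1.20 points with R1881, without overlap (exact permutation p = 0.1), and by 0.86 points with dual knockdown, with overlap (exact permutation p = 0.2).

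PTGES3 (ENSG00000110958, chr12:56663341-56688408, minus strand), the p23 cochaperone that acts late in the HSP90 cycle, rose with R1881 and fell after dual knockdown in both lines. Its CPM in LNCaP were 403, 440 and 435 with vehicle, 481, 530 and 498 with R1881 and 452, 415 and 431 after dual knockdown. In C4-2 they were 545, 512 and 469, then 651, 598 and 596, then 432, 491 and 479. The R1881 libraries were above both other groups of the same line. R1881 gave log2 fold changes of 0.22 ± 0.06 in LNCaP (SE, adjusted p = 0.00409, edgeR) and 0.27 ± 0.08 in C4-2 (adjusted p = 0.0202, edgeR). Dual knockdown gave -0.20 ± 0.06 in LNCaP (adjusted p = 0.0292, edgeR) and -0.40 ± 0.08 in C4-2 (adjusted p = 0.00257, edgeR).

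The dual knockdown call of PTGES3 in C4-2 held under all 18 alternative fits, and that in LNCaP was lost in 6 of 18, 4 of them fits that left out LNCaP siScr R1881 replicate 2 or 3 or LNCaP dual knockdown replicate 2 or 3 (adjusted p 0.0777 to 0.149). The R1881 call of PTGES3 in C4-2 was lost without C4-2 vehicle replicate 2 (adjusted p = 0.053) and without C4-2 siScr R1881 replicate 1 (0.0831), and once GC trends were removed (0.15, adjusted p = 0.0926). Of the counts at PTGES3 and its 5 named pseudogenes, 1.39% lay on the pseudogenes, the largest such share among the 10 genes.

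STIP1 (ENSG00000168439, chr11:64185272-64204543, plus strand), the HOP adaptor between HSP70 and HSP90, rose with R1881 in both lines and did not change past the threshold with dual knockdown. In LNCaP its CPM were 277, 286 and 297 with vehicle, 352, 351 and 351 with R1881 and 373, 356 and 336 after dual knockdown. In C4-2 they were 332, 315 and 329, then 389, 387 and 387, then 411, 399 and 410. The vehicle libraries were the lowest of each line, and in C4-2 the dual knockdown libraries lay above the siScr libraries with R1881. The R1881 responses were 0.28 ± 0.05 (SE, adjusted p = 5.43e-04, edgeR) and 0.25 ± 0.07 (adjusted p = 0.00965, edgeR). With dual knockdown the values were 0.03 (95% interval -0.08 to 0.15) and 0.07 (95% interval -0.07 to 0.21).

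HSPA8 (ENSG00000109971, chr11:123057489-123063230, minus strand), the constitutive HSP70, also rose with R1881 in both lines. Its CPM in LNCaP were 2195, 2410 and 2482 with vehicle, 2601, 2862 and 2765 with R1881 and 2924, 2678 and 2613 after dual knockdown. In C4-2 they were 2362, 2145 and 2387, then 2989, 2817 and 2840, then 3006, 3067 and 3167. The R1881 libraries of each line lay above its vehicle libraries, and in C4-2 the dual knockdown libraries lay just above the siScr libraries with R1881. R1881 raised HSPA8 by 0.20 ± 0.06 in LNCaP (SE, adjusted p = 0.0108, edgeR) and by 0.32 ± 0.07 in C4-2 (adjusted p = 0.00241, edgeR). With dual knockdown its values were 0.02 in LNCaP and 0.09 in C4-2 (95% interval -0.06 to 0.24), neither past the threshold. The J-domain partner DNAJA1 (ENSG00000086061, chr9:33025211-33039907, plus strand) passed no test within a line, with CPM between 314 and 351 over the 9 LNCaP libraries and between 323 and 427 over the 9 C4-2 libraries. The log2 fold changes of DNAJA1 with R1881 were -0.01 in LNCaP and 0.13 in C4-2 (95% interval -0.07 to 0.33).

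The small R1881 changes depended on the scaling between libraries. TMM scaling places the median of all genes near 0, at -0.04 in LNCaP and -0.02 in C4-2. Scaled by total counts alone, the log2 fold change of all genes moved by a median of -0.14 in LNCaP and -0.13 in C4-2. On that scale FKBP5 (4.10) and STIP1 stayed higher in LNCaP, PTGES3 and HSPA8 lost their calls, and HSP90AA1, HSP90AB1, DNAJA1 and BAG1 were called lower, 2 higher and 4 lower in all. In C4-2, FKBP5 (3.13), HSP90AA1 and HSPA8 stayed higher and HSP90AB1, PTGES3 and STIP1 lost their calls. Among all genes called, the share called higher went from 50.3% to 31.7% in LNCaP and from 52.1% to 31.8% in C4-2.

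**Figure D3:**
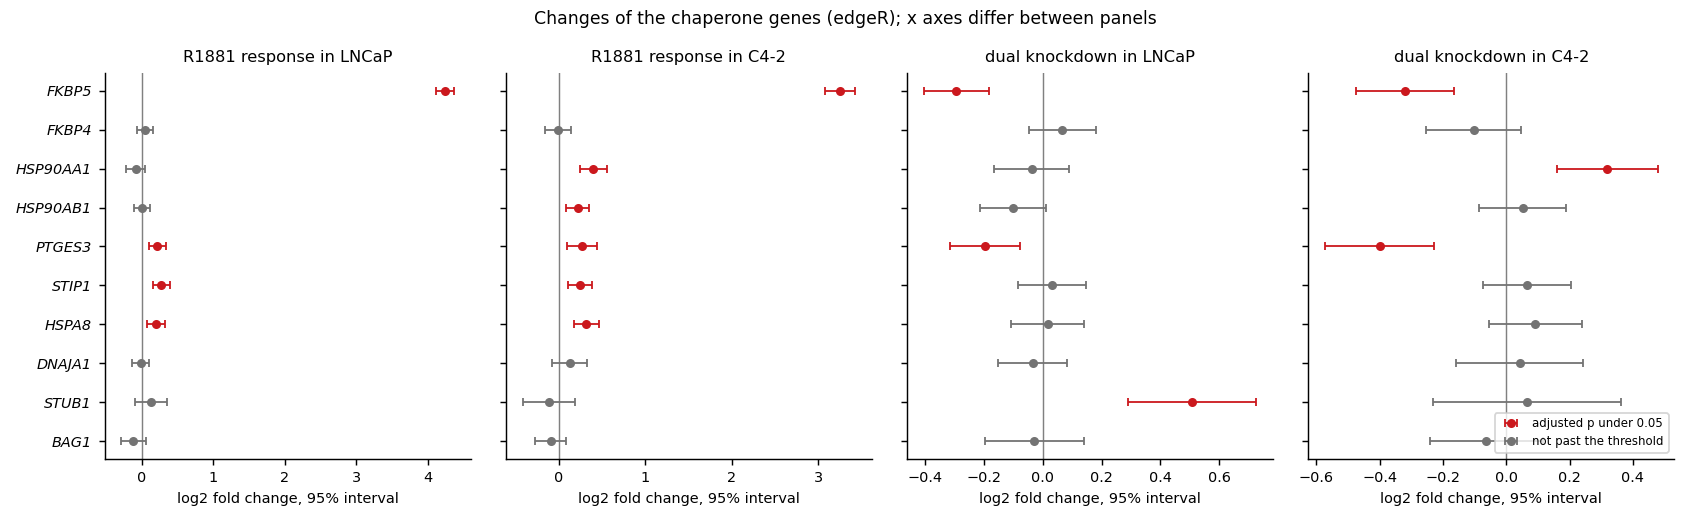
Log2 fold change (x axis, which differs between panels) with its 95% interval for each of the 10 genes (y axis) in the 4 comparisons within a line, from edgeR on 9 libraries a line; red points had an adjusted p under 0.05. FKBP5 stands at 4.24 and 3.26 with R1881, all other R1881 values are at most 0.40, and FKBP5 and PTGES3 lie below 0 with dual knockdown in both lines.

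STUB1 (ENSG00000103266, chr16:680224-682870, plus strand), the CHIP ubiquitin ligase that tags chaperone-bound proteins, was called only for dual knockdown in LNCaP among the 4 comparisons within a line. Its CPM in LNCaP were 56.4, 46.6 and 61.7 with vehicle, 69.0, 51.7 and 61.5 with R1881 and 87.2, 87.9 and 81.7 after dual knockdown. In C4-2 they were 100, 82.7 and 72.3, then 82.0, 81.8 and 75.7, then 108, 70.2 and 73.2. The dual knockdown libraries were above all others in LNCaP, while in C4-2 dual knockdown replicate 1 stood above and the other 2 below the siScr libraries with R1881. The log2 fold changes were 0.51 ± 0.10 in LNCaP (SE, adjusted p = 0.00609, edgeR) and 0.06 in C4-2 (95% interval -0.23 to 0.36). The difference between the lines was not past the threshold (-0.42, adjusted p = 0.192, edgeR), but it was without C4-2 dual knockdown replicate 1 (-0.64, adjusted p = 0.0103). The knockdown itself was deeper in C4-2.

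The antisense gene JMJD8 overlaps 42.4% of the STUB1 exon model, and since the counting used no strand, read pairs that hit exons of both were counted for neither. JMJD8, named after its values were seen, had 28.5, 25.6 and 28.6 CPM with R1881 and 40.2, 39.7 and 39.8 CPM after dual knockdown in LNCaP (log2 fold change 0.55, adjusted p = 0.00186, edgeR). JMJD8 was also called higher with dual knockdown in C4-2 (0.75, adjusted p = 0.00709, edgeR), where STUB1 was not called. Its CPM there were 23.3, 22.2 and 22.7 with R1881 and 49.59, 34.63 and 30.85 after dual knockdown. The highest of these was replicate 1, the library that stood apart and that was also the highest for STUB1. STUB1 also has the highest GC content of the 10 genes, 65% of its longest transcript against 41.5% to 55.2% for the rest. Of 5 equal groups of genes by GC content, the richest had a median log2 fold change of dual knockdown in LNCaP of 0.27 and the poorest -0.13. Once each library's trend with GC content was removed, STUB1 stood at 0.14 for dual knockdown in LNCaP (adjusted p = 0.176, edgeR) and was past the threshold with R1881 in both lines, at 0.34 in LNCaP and 0.21 in C4-2.

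BAG1 (ENSG00000107262, chr9:33247820-33264761, minus strand), an HSP70 nucleotide exchange factor, passed none of the tests within a line. It had 47.7 to 58.7 CPM over the 9 LNCaP libraries and 85.3 to 108 CPM over the 9 C4-2 libraries, without overlap between the lines. C4-2 exceeded LNCaP by 0.80 with vehicle and 0.81 with R1881 on the log2 scale (adjusted p = 5.51e-08 and 3.23e-08, edgeR).

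Between the lines, 7 of 10 genes differed with vehicle and 9 of 10 with R1881, where 58.9% and 58.3% of all 18684 genes tested were called. With vehicle 29.4% of genes were called higher in C4-2 and 29.5% lower, and with R1881 28.6% higher and 29.7% lower. The libraries of the lines did not overlap for 8 and 9 of the 10 genes, against 61.9% and 64.8% of all genes. With vehicle, FKBP4, HSP90AA1, PTGES3 (0.26), STIP1 (0.18), STUB1 (0.66) and BAG1 were higher in C4-2, and HSP90AB1 was lower. With R1881 the same 6 and DNAJA1 (0.21, adjusted p = 0.0242, edgeR) were higher, and FKBP5 and HSP90AB1 were lower. HSPA8 passed neither test (-0.04 and 0.07). With vehicle and GC trends removed, DNAJA1 (0.26, adjusted p = 0.00184, edgeR) and FKBP5 were also called higher in C4-2. In that fit STIP1 lost its call (0.10, adjusted p = 0.14, edgeR). The vehicle call of STUB1 held in all 25 alternatives, with values of 0.39 to 0.76. The STIP1 difference was small, and with R1881 (0.14, adjusted p = 0.029, edgeR) its call was lost in 8 of 25 alternatives, in each of the 6 fits that left out a library of the groups compared (adjusted p 0.0574 to 0.0779), without the filter and with GC trends removed. With R1881 the DNAJA1 call was lost in 3 fits and the STUB1 call (0.39) in 4 fits that left out 1 library. A line and the handling of that line's libraries cannot be told apart.

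Levels can be ranked between genes only per length, here as CPM per kilobase of exon model. With vehicle, HSP90AB1 led in LNCaP at 844 ± 43.5 (SD, n = 3), followed by HSPA8 at 487 ± 30.8 and HSP90AA1 at 302 ± 21.6. PTGES3 and DNAJA1, whose ranges overlapped, came next at 125 and 123, then FKBP4 at 76.6, STIP1 at 61.6, STUB1 at 23.7, FKBP5 at 9.53 and BAG1 at 8.01. With R1881, FKBP5 moved from place 9 to place 4, at 182 ± 11.6, above PTGES3 at 148 and below HSP90AA1 at 288. It kept place 4 after dual knockdown, at 146 ± 1.16.

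In C4-2, FKBP5 was the lowest of the 10 per kilobase with vehicle (10.2 ± 0.276) and took place 7 with R1881 (97.5 ± 4.41), between FKBP4 at 107 and STIP1 at 83.2. After dual knockdown it was eighth, at 78.3 ± 4.05, below STIP1 at 87.4. HSP90AB1, HSPA8 and HSP90AA1 led in C4-2 with vehicle at 586, 474 and 396. After dual knockdown HSP90AB1 at 711 ± 19.4 and HSP90AA1 at 657 ± 43.6 had overlapping ranges, as did HSP90AA1 and HSPA8 at 635 ± 16.8, so that their order was not resolved. The exon model is the union of all annotated exons, so a gene with long rare exons, such as FKBP5 with 10628 bases, is placed lower than by its main transcript.

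**Figure D4:**
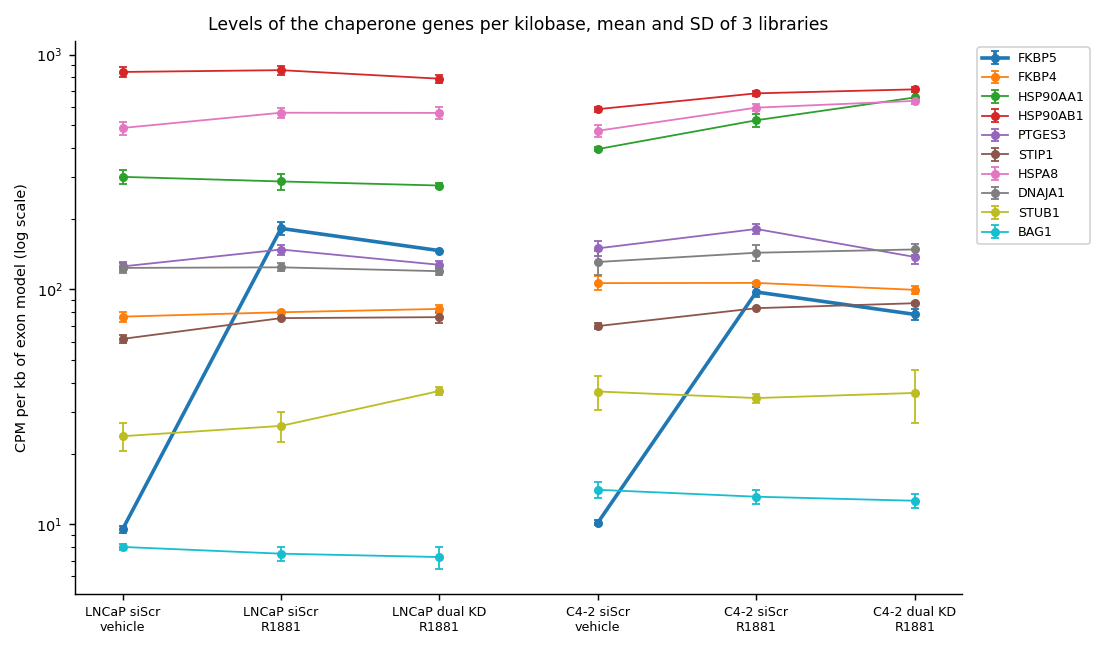
Mean CPM per kilobase of exon model (y axis, log scale) with the SD of 3 libraries for the 10 genes in the 6 groups (x axis), joined within a line. FKBP5 climbs from 9.53 to 182 in LNCaP and from 10.2 to 97.5 in C4-2 with R1881, and HSP90AA1 climbs from 396 to 657 over the 3 C4-2 groups.

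Other chaperone genes were read from fixed lists as counts beside the background above. Some genes are in more than 1 list, so the lists are not independent of each other. The list values come from the main fits only, with TMM scaling and without removal of GC trends. Scaling by total counts alone moved the R1881 values of all genes by a median of -0.14 in LNCaP and -0.13 in C4-2. The part of scaling and GC content in the list counts and medians was not tested. With R1881 in LNCaP, 8 of 22 other HSP90 proteins and cochaperones were higher and 2 lower, with a median log2 fold change of 0.12 against -0.04 for all genes. FNIP2 (1.15), the endoplasmic reticulum HSP90 gene HSP90B1 (0.82) and the immunophilin gene PPID (0.45) were the highest, and CHORDC1 (-0.50) and PIH1D1 (-0.25) were lower. In C4-2, 5 of 22 were higher and none lower, among them FNIP2 (0.45), AHSA1 (0.38), which activates the HSP90 ATPase, and SUGT1 (0.36).

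Among other HSP70 proteins and cochaperones, 10 of 23 tested were higher and 4 lower with R1881 in LNCaP, and 9 of 23 were higher and 2 lower in C4-2. The endoplasmic reticulum HSP70 gene HSPA5 (0.74), its exchange factor gene SIL1 (0.68) and HSPA13 (0.62) led in LNCaP. ST13 (0.69), whose product HIP acts early in the receptor relay, HSPA4 (0.56) and HSPA13 (0.47) led in C4-2 among genes with a mean of at least 1 CPM. In the C4-2 vehicle libraries 1 value stood apart for ST13 (154 against 225 and 233 CPM) and for HSPA13 (79.0 against 56.7 and 57.9 CPM). The order of these genes was therefore not settled. HSPA12A was lower in both lines (-0.41 and -0.65). HSPA1A was called lower in C4-2 (-3.01, adjusted p = 0.0415, edgeR), but its vehicle level rested on replicate 3, at 12.8 CPM from 44 counts against 0.569 and 0.516 CPM in the other libraries. Read pairs that map to both HSPA1A and its near-identical copy HSPA1B were counted for neither.

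For the other J-domain proteins, 10 of 27 were higher and 2 lower with R1881 in LNCaP, and 12 of 26 tested were higher and none lower in C4-2, with medians of 0.13 and 0.24. The highest were DNAJB9 (1.60), DNAJC3 (0.95) and DNAJB14 (0.76) in LNCaP and DNAJC1 (1.03), DNAJB9 (0.87) and DNAJC12 (0.71) in C4-2. DNAJB9 and DNAJC3 act in the endoplasmic reticulum, as HSPA5 and HSP90B1 do. DNAJB4 (-0.51) and DNAJC13 (-0.21) were lower in LNCaP.

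With R1881, the other FKBP immunophilins moved far less than FKBP5. Of 11 tested, 5 were higher and 3 lower with R1881 in LNCaP, led by FKBP2 (0.76), FKBP1A (0.64) and FKBPL (0.44), with FKBP9 (-0.73), FKBP7 (-0.53) and FKBP10 (-0.43) lower. In C4-2, 3 were higher, FKBP11 (0.43), FKBP3 (0.41) and FKBP1A (0.34), and 2 lower, FKBP9 (-0.44) and FKBP10 (-0.26). With dual knockdown none was lower, while 4 of 11 were higher in LNCaP, led by FKBP8 (0.52), FKBP2 (0.49) and FKBP10 (0.27), and 5 of 11 in C4-2, led by FKBP3 (0.80), FKBP1A (0.68) and FKBP11 (0.65). For dual knockdown in LNCaP, the genes richest in GC had a median of 0.27, and GC trends were not removed for these values.

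Of 14 other targets of heat shock factor 1, 8 were higher and 3 lower with R1881 in LNCaP and 7 were higher and 1 lower in C4-2. CRYAB (3.01 and 1.49) and HSPE1 (0.49 and 0.68) were among the 3 highest in both lines, joined by HSPB1 (0.59) in LNCaP and HSPD1 (0.47) in C4-2. HSPA4L (-0.59), DNAJB4 and CHORDC1 were the lower ones in LNCaP and HSPA1A in C4-2, all of them also counted in the lists above. After dual knockdown, HSPB1, the small heat shock protein HSP27, was higher in both lines, from between 206 and 243 CPM to between 374 and 391 CPM in LNCaP and from between 438 and 474 CPM to 1659, 945 and 957 CPM in C4-2. Its log2 fold changes were 0.81 (adjusted p = 0.00109, edgeR) and 1.36 (adjusted p = 4.23e-05, edgeR), and C4-2 dual knockdown replicate 1, also the highest for STUB1, held the top value. In the rest of the list, HSPH1 (-0.21) was lower in LNCaP, and in C4-2 CHORDC1 (0.32), HSPA4L (0.32) and AHSA1 (0.25) were higher and CRYAB (-0.77) lower.

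With dual knockdown, 4 of 22 other HSP90 genes were higher and 4 lower in LNCaP, and 3 were higher and 3 lower in C4-2. FNIP1 (-0.39 and -0.66) and FNIP2 (-0.35 and -0.58) were lower and PIH1D1 (0.40 and 0.32) was higher in both lines, and PPID (-0.26) in LNCaP and TRAP1 (-0.29) in C4-2 were also lower. FKBP8 was also higher in LNCaP. Of 23 other HSP70 genes tested, 2 were higher and 3 lower in LNCaP, where HSPBP1 (0.55) and SIL1 (0.26) were higher and HSPH1, HSPA4 (-0.18) and HSPA9 (-0.17) lower. In C4-2, 3 were higher, HYOU1 (0.44), HSPA4L and HSPA5 (0.28), and 4 lower, with HSPA1L (-0.88), SGTA (-0.37) and HSPA14 (-0.32) the lowest. J-domain genes gave 0 higher and 2 lower in LNCaP, DNAJB14 (-0.22) and DNAJC3 (-0.20), and 2 higher and 3 lower in C4-2, where DNAJC10 (0.65) and DNAJB9 (0.48) rose and DNAJC2 (-0.42), DNAJB14 (-0.32) and DNAJA3 (-0.20) fell.

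**Figure D5:**
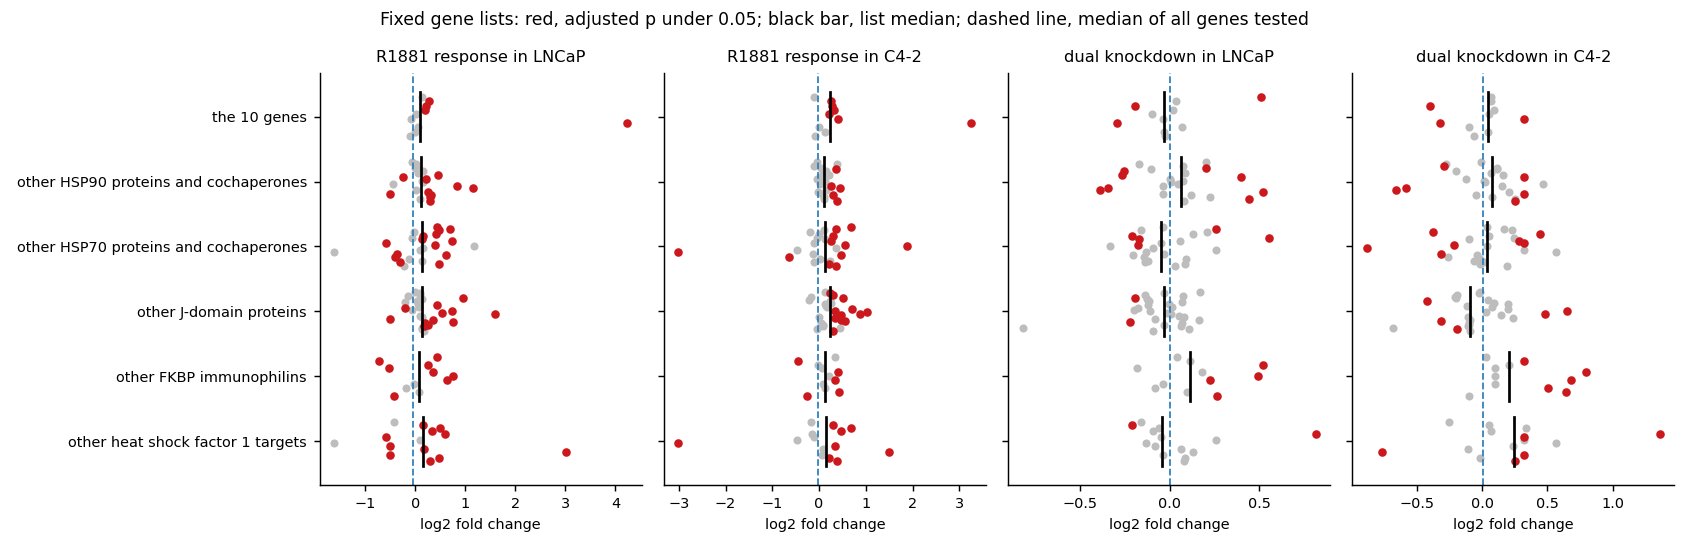
Log2 fold change (x axis) of each gene tested in the 10 genes and 5 other lists (y axis) in the 4 comparisons within a line; red points had an adjusted p under 0.05, black bars are list medians and the dashed line is the median of all genes tested. FKBP5 is the rightmost point of the first row with R1881, at 4.24 and 3.26, and CRYAB (3.01) is the highest of the other lists in LNCaP.

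NR3C1, the glucocorticoid receptor gene that drives FKBP5 in many tissues, was at most 1.43 CPM in any library. NR3C2 was between 5.65 and 11.9 CPM in LNCaP and between 17.6 and 41.4 CPM in C4-2, and it was lower with R1881 (-0.45 and -0.53) and with dual knockdown (-0.46 and -0.63). PGR was at most 3.57 CPM in any library, and ESR1 and ESR2 were at most 0.281 and 1.15 CPM.

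Other androgen-induced genes were set beside FKBP5. With R1881, TMPRSS2 rose by 4.13 and 3.11 and KLK3 by 3.70 and 4.16 on the log2 scale in LNCaP and C4-2. The line difference of the R1881 response was -1.04 for TMPRSS2, of the same sign as for FKBP5, and 0.44 for KLK3 (adjusted p = 1.48e-06 and 0.0343, edgeR). With dual knockdown, KLK3 was higher in LNCaP (0.27, adjusted p = 0.00965, edgeR), and TMPRSS2 passed neither test. For dual knockdown in LNCaP, the genes richest in GC had a median log2 fold change of 0.27. GC trends were not removed for KLK3, TMPRSS2 or the genes that follow, and the part of GC content in their values was not tested. Among 7 other genes induced by steroid receptors, 6 were higher and 1 lower with R1881 in LNCaP and 4 were higher in C4-2, with SGK1 (2.95 and 3.02), ERRFI1 (2.63 and 1.86) and ZBTB16 (2.20 and 2.07) the highest and KLF9 (-0.28) lower in LNCaP. Over all genes tested, R1881 called 23.5% higher and 23.2% lower in LNCaP and 17.1% higher and 15.7% lower in C4-2. Of the same 7, SGK1 (-0.37 and -1.12) and ERRFI1 (-0.27 and -0.27) were lower after dual knockdown in both lines, KLF9 (-0.31) was lower in C4-2 and DUSP1 (0.38) was higher in LNCaP. Over all genes tested, dual knockdown called 8.27% higher and 5.89% lower in LNCaP and 12.7% higher and 10.8% lower in C4-2.

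Among the genes whose log2 CPM followed FKBP5 most closely over the 18 libraries, out of 14948 other genes with a mean of at least 1 CPM, were MPZL1 (Pearson r 0.996), ELOVL5 (0.996), F5 (0.996) and HPGD (0.996). The 18 points share 6 groups, so these values describe mainly the group means. ELOVL5, a fatty acid elongase gene, went from 276 to 1976 and 1780 CPM on average in LNCaP and from 257 to 1471 and 1032 CPM in C4-2, in the order vehicle, R1881 and dual knockdown. F5 went from 0.879 to 137 and 74.9 CPM in LNCaP and from 1.05 to 53.1 and 27.7 CPM in C4-2 in the same order. None of the other 9 chaperone genes came near this, with HSPA8 at 0.766 (rank 963) and STIP1 at 0.713 (rank 1285) the closest and the rest between -0.29 and 0.36.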

How the data were processed

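RNA Seq counts of 18 libraries were used, grouped by their titles. As the study's methods and the file headers state, the authors trimmed reads from poly(A) libraries with Trim Galore, aligned them to GRCh38 with STAR and counted read pairs per Ensembl 83 gene with featureCounts 1.5.0-p1. The deposited counts are whole read pairs per gene without normalisation, and no option for strand, multi-mapping or overlapping reads was set, so read pairs that hit 2 genes or map to several places were left out. STAR's version is not given in the sources used here.

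Gene symbols came from a table of current names and, for IDs it lacks, GENCODE 29. Counts were fitted with edgeR 4.0.16 in R 4.3.3 (TMM, filterByExpr with a minimum count of 10 and total of 15, quasi-likelihood F-test, 2-sided, Benjamini-Hochberg). Comparisons within a line used its 9 libraries and comparisons between lines all 18. SE was the absolute log2 fold change over the square root of F, with 95% intervals. Printed CPM used 1 TMM scaling of all 18 libraries. The fits were tested on simulated data. Ratios per kilobase were compared by exact permutation with scipy.

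The members and lists were chosen with earlier results of these data known. Named genes were the 10 members, the knockdown, androgen and receptor genes, the up to 3 highest and 3 lowest called genes per list and comparison with a mean of at least 1 CPM, and the 5 genes most like FKBP5. JMJD8 was named after its values were seen. Some genes that this rule names are not reported here. Alternatives were RLE factors, library size only, DESeq2 1.42.0, no filter, a filter at a mean of 1 CPM, fits of only the groups compared, all 18 libraries in 1 fit, a replicate block, leaving out each library, a fold threshold and ratios without length. Removal of GC trends, with the GC content of each gene's longest GENCODE 29 transcript, was chosen after seeing the data.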

Additional observations from a re-analysis of the deposited data

Results flagged for a closer look

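Responses of 2 genes differed between the lines by the interaction test in all 18 libraries. The R1881 response of FKBP5 was lower in C4-2 than in LNCaP by -0.99 on the log2 scale (adjusted p = 3.65e-08, edgeR), with 18.9-fold in LNCaP and 9.56-fold in C4-2. The R1881 response of HSP90AA1 was higher in C4-2 by 0.47 (adjusted p = 0.00184, edgeR), and its dual knockdown response was higher in C4-2 by 0.38 (adjusted p = 0.0143, edgeR). The dual knockdown interaction lost its call in 3 of 25 alternative fits, and the knockdown itself was deeper in C4-2. Both R1881 interactions held in all 25. Single outlying libraries were not tested in groups of 3.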

How the results depend on the processing

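Of 35 calls of the 10 genes over the 8 comparisons, 22 held under every alternative fit at the same threshold and 13 were lost in at least 1. Besides those given with the results, STIP1 between the lines with vehicle lost its call without the filter and without LNCaP vehicle replicate 1. With a log2 fold change of at least 1 also required, the members called were 1 for R1881 in each line and 0 in the other 6 comparisons. Scaling by library size left 3 members for R1881 in C4-2 and gave HSP90AB1 -0.13 in LNCaP. Removal of GC trends left 1 member, FKBP5, for dual knockdown in LNCaP and gave STUB1 0.21 for R1881 in C4-2 (adjusted p = 0.0309, edgeR). For the dual knockdown difference between the lines, DESeq2, no filter and removal of GC trends each called 2 members, and fits that left out 1 library called 0 to 2, where the main count was 1. Over all genes, dual knockdown in LNCaP called 2431, against 1145 with all 18 libraries in 1 fit, 1134 with GC trends removed and 839 to 2936 with 1 library left out. In C4-2 it called 3983, against 2482 to 4668 with 1 library left out, and its difference between the lines called 2028, against 1272 to 3538. Of 1720 values of the 10 genes under alternatives, 69 had the other sign while past the threshold in neither fit. The replicate block changed no count of members (4, 6, 3, 3, 7, 9, 2 and 1) and no member's call. The numbers did not pair the libraries, since correlations of same-numbered libraries lay between -0.58 and 0.49 and at most 2 of 6 libraries a comparison correlated best with their own number. Leaving out the division by length adds the same constant to every log2 ratio and cannot move the differences. Depth limits C4-2 vehicle replicate 3 most, and with 3 libraries a group the exact permutation test cannot go below 0.1.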
